A study of Mus musculus with 8 samples.

Results

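Structural cluster 7 is a set of 92 cells among 20778 cells of mouse lung grafts. Its members were taken from the authors' own subclustering of 5514 lung structural cells, as the cells that carry the number 7 there, and no threshold on a gene was used. Single cells came from left lungs transplanted orthotopically into B6 (C57BL/6) recipients and harvested 1 month later. The B6→B6 group held 5 mice with B6 donor lungs. The HLA→B6 group held 3 mice whose donor lungs carried a human HLA-A2.1 transgene on the same strain, of the line Tg(HLA-A2.1)1Enge. All mice were male, none was given immunosuppression, and each graft was 1 mouse and 1 library of droplet 3′ end sequencing in which 10000 cells were loaded. The count is the unique molecular identifier (UMI), 1 per captured transcript molecule, and levels are given as CPM, the UMIs of a gene summed over the cells named and scaled to 1000000 UMIs of those cells.

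The deposited table calls cluster 7 "Epithelial cells", but Ppbp and Pf4 were each present in more of its cells than any of 6 epithelial genes. Over all 92 cells Epcam, which encodes the adhesion molecule of epithelial surfaces, had 1 UMI (11.6 CPM against 13.2 CPM in all other cells). The keratins Krt8 and Krt18 had 1 and 2 UMIs (11.6 against 4.92 CPM and 23.1 against 5.45 CPM). Counts of 1 or 2 UMIs are too few to show a difference in level for these genes. Sftpc, the surfactant protein C gene of type II cells, had 25 UMIs in 15 cells (289 against 1516 CPM). Scgb1a1, the club cell secretory protein gene, had 336 UMIs in 19 cells, of which 276 stood in 1 cell of B6→B6 replicate 2. With that cell the 6 epithelial genes summed to 4279 CPM, and without it to 1063 CPM, against 2342 CPM outside the cluster. By share of cells with a UMI, Sftpc (16.3% against 4.27%) and Scgb1a1 (20.7% against 10.7%) were more frequent in the cluster than outside. By contrast Ppbp and Pf4 were both present in 87 of the 92 cells, and 1 cell had neither. The cells are therefore called by their number and their leading genes here, the platelet-gene cells. In the coarser clustering of all cells, 79 of them lay in broad cluster 12, which has 90 cells in all, and 13 in broad cluster 0.

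Platelets are cell fragments shed by megakaryocytes, large polyploid cells of the bone marrow and also of the lung vasculature. They have no nucleus and carry RNA left from the megakaryocyte. Their granules release chemokines and adhesion proteins, and surface glycoprotein complexes bind von Willebrand factor, collagen and fibrinogen at a damaged vessel wall. Transcription factors of the GATA, ETS and NF-E2 families drive the megakaryocyte program.

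The genes that mark the cluster are neighbors. Ppbp, which encodes the precursor of platelet basic protein (CXCL7), lies on the plus strand at chr5:90768518-90770063, and Pf4, which encodes platelet factor 4 (CXCL4), at chr5:90772435-90773383 on the same strand (GRCm38). The gap is 2371 bases and holds 0 annotated genes. Itga2b, Gp9 and Gp5, 3 receptor subunit genes that stood far above their level in other cells, lie on chromosomes 11, 6 and 16. The 250 bases before the RefSeq start of each of these genes are shown because members that mark the same cells lie at separate sites (GRCm38.p6, written 5′ to 3′ on the strand of the gene). Capitals mark the ETS motif GGAAG, its reverse complement CTTCC, the GATA motif AGATAA and its reverse complement TTATCT. The windows are chr5:90768268-90768517 for Ppbp, chr5:90772185-90772434 for Pf4, chr11:102469884-102470133 for Itga2b, chr6:87777820-87778069 for Gp9 and chr16:30310782-30311031 for Gp5. By its GENCODE position Itga2b spans chr11:102453297-102470122 on the minus strand, so by that position most of its window lies inside the gene.
Ppbp: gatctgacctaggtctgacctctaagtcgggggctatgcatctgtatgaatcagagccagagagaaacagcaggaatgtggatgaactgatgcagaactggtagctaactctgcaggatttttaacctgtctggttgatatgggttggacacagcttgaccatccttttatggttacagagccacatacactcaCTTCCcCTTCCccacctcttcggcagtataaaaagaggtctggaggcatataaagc
Pf4: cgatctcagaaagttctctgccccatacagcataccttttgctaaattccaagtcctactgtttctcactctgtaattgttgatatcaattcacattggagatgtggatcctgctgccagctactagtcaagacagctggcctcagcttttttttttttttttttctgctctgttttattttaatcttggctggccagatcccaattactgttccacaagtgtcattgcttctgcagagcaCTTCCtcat
Itga2b: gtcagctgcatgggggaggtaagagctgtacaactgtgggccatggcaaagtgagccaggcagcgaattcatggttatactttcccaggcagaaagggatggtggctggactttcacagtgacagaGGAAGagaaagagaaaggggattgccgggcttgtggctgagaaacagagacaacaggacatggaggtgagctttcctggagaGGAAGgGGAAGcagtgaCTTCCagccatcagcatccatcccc
Gp9: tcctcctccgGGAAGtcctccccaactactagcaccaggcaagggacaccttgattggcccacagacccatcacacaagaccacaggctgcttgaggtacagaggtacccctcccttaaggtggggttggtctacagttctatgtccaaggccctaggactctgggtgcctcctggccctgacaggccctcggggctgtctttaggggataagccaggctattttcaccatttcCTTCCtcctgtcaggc
Gp5: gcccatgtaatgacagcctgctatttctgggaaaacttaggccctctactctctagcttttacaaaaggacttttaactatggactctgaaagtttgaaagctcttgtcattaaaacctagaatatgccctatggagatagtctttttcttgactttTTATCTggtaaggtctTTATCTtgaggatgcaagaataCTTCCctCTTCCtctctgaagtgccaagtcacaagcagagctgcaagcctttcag

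The 12 core platelet genes and Pf4 were looked up in the RefSeq promoter table, and 12 of the 13 had an entry. The ETS motif was present in 10 of the 12 windows (both strands), against 64.1% of 32851 windows of the same length. The GATA motif was present in 2, those of Gp5 and Gp6, against 9.99% of all windows, and the NF-E2 motif TGAGTCA in 0, against 4.46%. In Ppbp the ETS matches stood 56 and 50 bases before the start and in Pf4 9 bases before it. These matches describe the letters of the window and are not binding sites.

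Depth bears on every value that follows. Libraries held 868 to 6544 cells and 1669076 to 12445769 UMIs, with a median of 1356 to 1948 UMIs per cell. The platelet-gene cells were shallower, with a median of 622 UMIs (range 409 to 7164) and 330.5 genes, and 86470 UMIs in all, so that 3 UMIs over the whole cluster are worth 34.7 CPM. Scrublet called 0 of them doublets, against 256 of all cells (1.23%). Cell barcodes were shared between libraries in 1014 of all cells and in 3 of cluster 7. Such sharing, at 5 times or more the median rate of pairs, linked the first 3 B6→B6 replicates with each other, and the first 2 of them with HLA→B6 replicate 2. These 4 libraries are called the linked set, and the other 4 were not linked at this level. The clusters were drawn from these same genes, so differences between cluster 7 and other cells are described without a test.

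The 12 core platelet genes (among them Ppbp, Itga2b, Gp1ba, Gp1bb, Gp5, Gp6, Gp9, Treml1, Tubb1, Clec1b and Alox12) summed to 31444 CPM in cluster 7 and 31.2 CPM in all other cells. Every cell of the cluster had at least 1 core UMI, with a median of 23.5 and a highest value of 93, and 76 cells had 10 or more. By mouse the core level ran from 15792 to 74590 CPM in cluster 7 and, in the 7 mice with such cells, from 17.4 to 59.2 CPM outside it. In each of these grafts the cluster stood far above the other cells. Over all 17920 genes with a UMI, 2.83% were at least 10-fold higher in cluster 7 than outside.

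Among granule contents, the chemokine genes led. Ppbp had 1570 UMIs in 88 cells. Its level in the cluster 7 cells of B6→B6 replicates 1 to 4 was 45251, 28109, 27549 and 12483 CPM, and in HLA→B6 replicates 1 to 3 it was 27374, 8738 and 7858 CPM. In cells outside the cluster the highest mouse was at 22.4 CPM, and over pooled cells the level was 1874-fold higher in cluster 7 (18157 against 9.69 CPM). Pf4 had 1073 UMIs in 90 cells and stood at 24863, 18938, 15996 and 9932 CPM in the same B6→B6 mice and at 14329, 8156 and 8859 CPM in the HLA→B6 mice. Its level outside was 21.7 CPM, a 572-fold difference. The order of the mice was much the same for both genes, with B6→B6 replicate 1, which had only 3 cells, highest. Thinned to 500 UMIs per cell, 91.0% of cluster 7 cells and 0.442% of others had a Ppbp UMI, against 95.7% and 0.870% unthinned. Thinning left out the cells under 500 UMIs, 19 of the 92 and 1185 of the others.

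All 14 genes of the granule list were detected, and 7 were at least 10-fold higher in cluster 7. Thbs1, which encodes thrombospondin 1, had 108 UMIs and was 56.6-fold higher, and its level ran from 313 to 3064 CPM between mice. Clu, the clusterin gene, had 142 UMIs and was 20.3-fold higher. Vwf, the von Willebrand factor gene, which endothelial cells also express, had 27 UMIs and was 8.42-fold higher. Lower folds were seen for Srgn, the serglycin core protein gene of many granulated cells (206 UMIs, 3.74-fold), and for Tgfb1 (69 UMIs, 3.62-fold). Pdgfb had 3 UMIs, 34.7 CPM against 36.4 CPM outside.

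Of 22 surface receptor genes 14 were at least 10-fold higher. Gp9, Gp5 and Gp1bb encode subunits of the GPIb-IX-V complex, the receptor for von Willebrand factor. Gp9 had 209 UMIs in 64 cells, with mouse values of 5967, 5598, 2666 and 1253 CPM in B6→B6 replicates 1 to 4 and 3755, 1019 and 1926 CPM in HLA→B6 replicates 1 to 3. It was 1199-fold higher than outside. Gp5 (92 UMIs, 774-fold) and Gp1bb (104 UMIs, 453-fold) followed, and Gp1ba, the ligand-binding subunit, had 11 UMIs. Itga2b, the alpha subunit of the fibrinogen receptor, had 171 UMIs in 61 cells. Its mouse values were 3481, 4764, 3140 and 1208 CPM in the B6→B6 mice and 1581, 947 and 1156 CPM in the HLA→B6 mice, against 5.93 CPM in the highest mouse outside the cluster. The partner subunit gene Itgb3 was at 335 CPM, 59.8-fold higher.

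Gp6, the collagen receptor gene (51 UMIs, 1288-fold), and Treml1, a receptor stored in alpha granules (76 UMIs, 1037-fold), were the second and the fourth gene by fold. Clec1b, which encodes CLEC-2, the receptor of podoplanin, had 260 UMIs in 72 cells and was 372-fold higher. The ADP receptor gene P2ry12 had 17 UMIs in all 7 mice (197 CPM, 69.2-fold). Cd9, a tetraspanin gene of many cell types, had the highest level of the list at 9310 CPM, against 949 CPM outside. F2rl3, which encodes the thrombin receptor PAR4, and Pear1 had 0 UMIs, so at this depth a level of up to 34.7 CPM would be missed.

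Genes of signalling and secretion were led by Gng11, a G protein gamma subunit gene (627 UMIs, 75.9-fold), and Alox12, the platelet 12-lipoxygenase gene (153 UMIs, 942-fold). Of 20 such genes 10 were at least 10-fold higher, among them Rab27b, which acts in dense granule secretion (180-fold), Rgs18 (78.3-fold) and Fermt3, the kindlin-3 gene needed for integrin activation (18.5-fold). Plcg2 had 0 UMIs. Sytl4, Tmem40, Rbpms2 and Mfsd2b, with 21, 60, 40 and 20 UMIs, were also among the 15 genes with the highest fold. These 4 genes were between 374-fold and 705-fold higher than outside.

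Cytoskeletal transcripts took the greatest share of the RNA. The 16 genes summed to 99630 CPM in cluster 7 and 25164 CPM outside. Tmsb4x, which encodes the actin-sequestering thymosin beta 4, was present in all 92 cells at 53105 CPM, against 12525 CPM outside, and Actb at 24991 CPM. Myl9, the regulatory myosin light chain gene, was 352-fold higher (243 UMIs), and Tpm4 12.8-fold (270 UMIs). Tubb1, the beta 1 tubulin gene of the platelet marginal band, had 1 UMI in 1 cell and Tuba8 had 0.

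Transcription factor genes of the megakaryocyte program had few counts, but their summed level was higher than outside (1642 against 486 CPM). The 14 genes summed to 142 UMIs in 58 cells, and 9 of them were higher in level than outside and 5 lower. Nfe2 had 47 UMIs (40.3-fold higher), Fli1 31 (4.63-fold), Gata2 20 (3.20-fold) and Gata1 9 (198-fold). Runx1 had 2 UMIs, 23.1 CPM against 65.6 CPM outside. Proliferation genes had 37 UMIs in all, 34 of them of Tubb5, and Mki67, Top2a, Ccnb1, Ccnb2 and Birc5 were at 0. Outside, these 5 genes stood at 8.59 CPM (Ccnb1) to 29.7 CPM (Top2a). Each level is below the 34.7 CPM that 3 UMIs are worth, so a count of 0 does not show a lower level. The plot of gene levels sets these groups side by side.

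**Figure D1:**
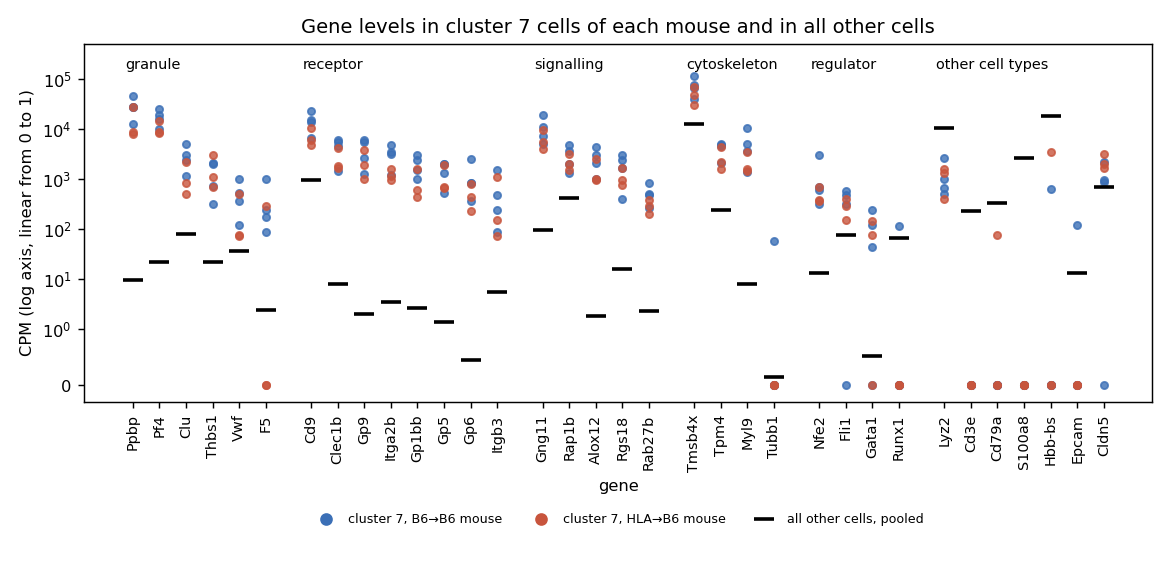
Levels of selected genes in CPM (log axis, linear from 0 to 1), grouped by role on the x axis. Each point is the summed cluster 7 cells of 1 mouse (4 B6→B6 and 3 HLA→B6), the bar is the pooled level of all other cells, and Ppbp sits between 7858 and 45251 CPM against a bar at 9.69 CPM.

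RNA of other blood cells was low in level in cluster 7. Ptprc, which encodes the pan-leukocyte antigen CD45, had 3 UMIs in 2 cells, against 42.2% of cells outside with a UMI. Defining genes at 0 were Cd3e and Trac of T cells, Ms4a1 of B cells, S100a8 and Csf3r of neutrophils, and Ncr1 of NK cells. Other members of their lists had counts. The T cell list came to 14 UMIs in 9 cells (162 against 2156 CPM outside), and the B cell list to 21 in 10 cells (243 against 18815 CPM). Neutrophil and NK lists had 2 UMIs each (23.1 CPM against 4921 and 1355 CPM). Cpa3 of mast cells was also at 0, but its level outside, 4.95 CPM, is below the 34.7 CPM that 3 UMIs are worth. All 11 monocyte and macrophage genes were lower in level than outside, and Lyz2, the most abundant, had 98 UMIs in 40 cells (1133 against 10416 CPM). The 6 red blood cell genes summed to 1295 CPM against 39868 CPM outside, and were counted in 18 cells. By share of cells with a UMI, Lyz2 (43.5% against 31.2%), Hbb-bs (9.78% against 4.97%) and Hba-a1 (7.61% against 2.28%) were more frequent in cluster 7. Hba-a2 and Alas2 were less frequent there (1.09% for both, against 2.15% and 2.66%). Lyz2, Scgb1a1 and hemoglobin genes were among those the authors used as reporters of free RNA. How far free RNA set these counts was not tested.

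Endothelial genes stood higher. The 8 genes summed to 608 UMIs in 54 cells, 7031 CPM against 2494 CPM outside. All 8 were higher in level in cluster 7 than in the pooled other cells, with a median fold of 2.86. They were not spread evenly over the cells, and they moved with Malat1.

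Malat1 is a long noncoding RNA that stays in the nucleus. It was absent from 61 of the 92 platelet-gene cells (66.3%), against 6.47% of all other cells. Thinned to 500 UMIs per cell, 62.8% of the 73 deep enough cluster 7 cells and 6.19% of other cells lacked it. Among structural clusters only cluster 4, the red blood cells, had a higher share without Malat1, 83.5%, and the next after cluster 7 was cluster 8 with 36.8%. Of the cluster 7 cells with Malat1, 12 had between 1 and 11 UMIs and 19 had 22 or more. That gap was seen in the data and a line at 20 UMIs was set in it afterwards, so the 3 sets are a description.

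The 61 cells without Malat1 had a median of 597 UMIs, 303 genes and 28 core platelet UMIs. Their core level was 54635 CPM, Ppbp stood at 32032 CPM and Pf4 at 21992 CPM, and Tmsb4x at 87967 CPM. Endothelial genes came to 65 UMIs in 29 of these cells, never more than 9 in a cell. Ribosomal protein transcripts made up a median of 2.67% of their UMIs, against 15.1% in cells outside cluster 7, and Ptprc was at 0.

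The 19 Malat1-rich cells were deeper, with a median of 1546 UMIs and 954 genes. Their core level was 7158 CPM, with a median of 9 core UMIs per cell, and 12 of them lay in broad cluster 0. Endothelial genes summed to 521 UMIs, and 18 of the 19 cells had 10 or more, against 0 of the other 73. Cldn5, a tight junction gene, was counted in 17 of the 19, Ramp2, an adrenomedullin receptor component gene, in 18, and Pecam1, which encodes CD31 and which platelets carry too, in 16. Ly6a stood at 4449 CPM in these cells and 459 CPM in those without Malat1, Ifitm3 at 3505 and 612 CPM, and Cd74 at 5244 and 459 CPM. Both Ptprc-positive cells were in this set. Scrublet marked none of the 19 as a doublet.

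The 12 cells with little Malat1 lay with the larger set. They had a median of 537.5 UMIs and a core level of 41035 CPM, and 0 of them had 10 endothelial UMIs. Over the 92 cells Spearman's rho was 0.64 between Malat1 and endothelial UMIs and 0.17 between core and total UMIs, both across cells of 7 libraries that share depth within a cell.

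**Figure D2:**
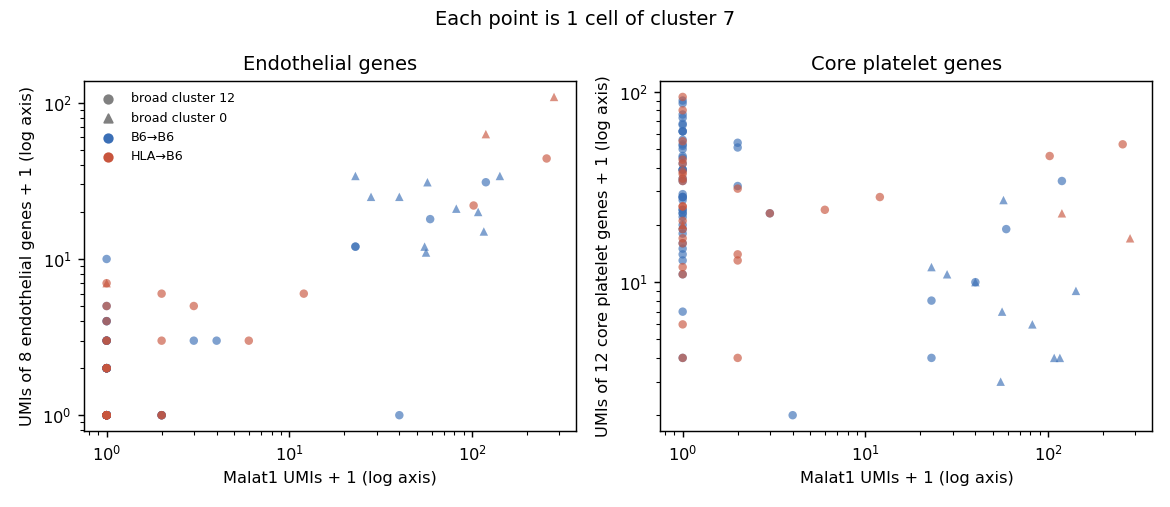
Each point is 1 of the 92 cluster 7 cells, with Malat1 UMIs + 1 on the x axis (log) and, on the y axes (log), UMIs + 1 of 8 endothelial genes (left) and of 12 core platelet genes (right). Color gives the group and shape the broad cluster, and 18 of the 19 cells at the right of each panel (22 or more Malat1 UMIs) had 10 or more endothelial UMIs.

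The first comparison asked whether grafts of the 2 groups held different numbers of platelet-gene cells. B6→B6 replicates 1 to 5 had 3, 11, 21, 26 and 0 such cells, which is 0.317%, 0.815%, 0.863%, 0.634% and 0% of all cells of the mouse. HLA→B6 replicates 1 to 3 had 12, 7 and 12 cells, or 0.183%, 0.213% and 0.963%. The first 2 HLA→B6 mice lay inside the range of the B6→B6 mice and replicate 3 just above it, so the groups overlapped. With 868 cells, the count of 0 in B6→B6 replicate 5 allows a share of up to 0.346% by the limit of 3 counts, and of up to 0.424% by the exact 95% interval that the plot of shares shows.

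The B6→B6 mean was 0.526% ± 0.364 (SD, n = 5), the HLA→B6 mean was 0.453% ± 0.442 (SD, n = 3), and the difference of -0.0727 percentage points was smaller than the spread (exact permutation test over 56 splits, two-sided, p = 0.875, smallest possible 0.0357). Among structural cells the share was 2.85% ± 3.20 and 1.59% ± 1.38 (exact permutation p = 0.696). For the share of all cells, the direction turned with the set of libraries. The difference was -0.452 points in the linked set (B6→B6 replicates 1 to 3 and HLA→B6 replicate 2) and 0.256 points among the others. The mean within sets was -0.0980 (exact permutation p = 0.875). A share depends on how many other cells were captured, and fewer platelet-gene cells cannot be told apart from more of the others.

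**Figure D3:**
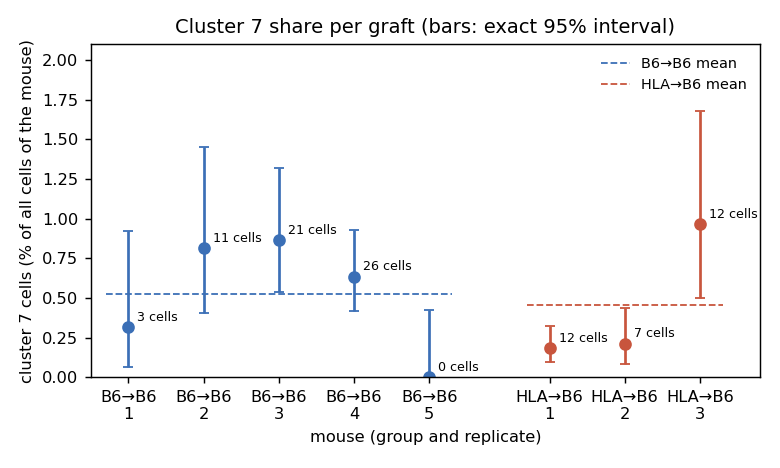
Cluster 7 cells as a percentage of all cells of each mouse, 5 B6→B6 and 3 HLA→B6. Points are mice, labelled with their number of cluster 7 cells, bars are exact (Clopper-Pearson) 95% intervals for counting error only, dashed lines are group means, and the HLA→B6 points at 0.183%, 0.213% and 0.963% fall within or just above the B6→B6 range of 0% to 0.863%.

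Within the cluster, the 6 mice with 5 or more such cells were compared, 3 in each group, where the smallest p an exact test can give is 0.1. The share of cells without Malat1 was 90.9%, 76.2% and 46.2% in B6→B6 replicates 2, 3 and 4 and 58.3%, 42.9% and 83.3% in HLA→B6 replicates 1 to 3. These values overlapped (71.1% ± 22.8 and 61.5% ± 20.4, SD, n = 3 each, exact permutation p = 0.7). The core platelet level was 53835, 47159 and 19731 CPM in the B6→B6 mice and 45261, 15801 and 15792 CPM in the HLA→B6 mice (40242 ± 18074 and 25618 ± 17011, SD, n = 3 each, exact permutation p = 0.2). In HLA→B6 replicates 2 and 3 the deepest single cell held 52.2% and 53.7% of the cluster's UMIs, against 9.46% to 23.0% in the other 4 of these mice. Both deepest cells lay in broad cluster 0. Without the cells of broad cluster 0 the core level was 51466 ± 14821 CPM in B6→B6 and 36648 ± 10561 CPM in HLA→B6 (SD, n = 3 each, exact permutation p = 0.2). That difference was -14819 CPM, against -14623 CPM with all cells. Endothelial levels (exact permutation p = 0.8) and median UMIs per cell (exact permutation p = 0.7) also overlapped.

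Gene by gene, counts summed per mouse were compared by edgeR's quasi-likelihood test with Benjamini-Hochberg adjustment. After the filter on low counts 215 genes were tested, and 0 were called higher and 0 lower in HLA→B6 (0% and 0% of those tested, smallest adjusted p = 0.929). At an unadjusted p under 0.05 there were 2 higher and 2 lower, where DESeq2 gave 0 adjusted calls and 1 higher and 2 lower unadjusted. On counts simulated at these depths for the 215 genes, 50.9% of 4-fold changes and 98.1% of 16-fold changes were recovered, and smaller changes were not simulated.

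The 4 genes with an unadjusted p under 0.05 are named because they are few, after their values were seen. Cd74, the invariant chain of MHC class II, stood at 953, 1600 and 1969 CPM in B6→B6 replicates 2 to 4 and at 4447, 6845 and 2542 CPM in HLA→B6 replicates 1 to 3. Its groups did not overlap, as for 16 of the 215 genes (7.44%), and its log2 difference was 1.52 ± 0.53 (SE, edgeR adjusted p = 0.929). Of its 251 UMIs in cluster 7, 211 lay in the Malat1-rich cells, and it is one of the reporters of free RNA that the authors used. Rps19 had a log2 difference of 1.32, Rsu1 of -1.53 and Itga2b of -1.25, and the groups overlapped for each of these 3.

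Of 86 genes in the 5 lists of granule, receptor, signalling, cytoskeleton and transcription factor genes, 28 passed the filter, and none was called. The log2 difference was negative in 27 of the 28 and positive in 1, Thbs1 (0.59 ± 0.63, SE), with a median of -0.50 against 0.08 over all genes tested, and 0 of the 28 had groups that did not overlap. Ppbp differed by -0.61 ± 0.57 and Pf4 by -0.50 ± 0.53 (SE, edgeR adjusted p = 0.929 for both). Ribosomal protein genes went the other way, with 51 of 53 positive and a median of 0.55. The genes of a list come from the same cells and the same sums, so these signs are not separate observations. Without the 13 cells of broad cluster 0, 27 platelet genes were tested, 19 were negative and 8 positive, and the median was -0.17. The 5 interferon response genes tested had a median of 0.30, and the 5 endothelial genes one of 0.11, none called.

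**Figure D4:**
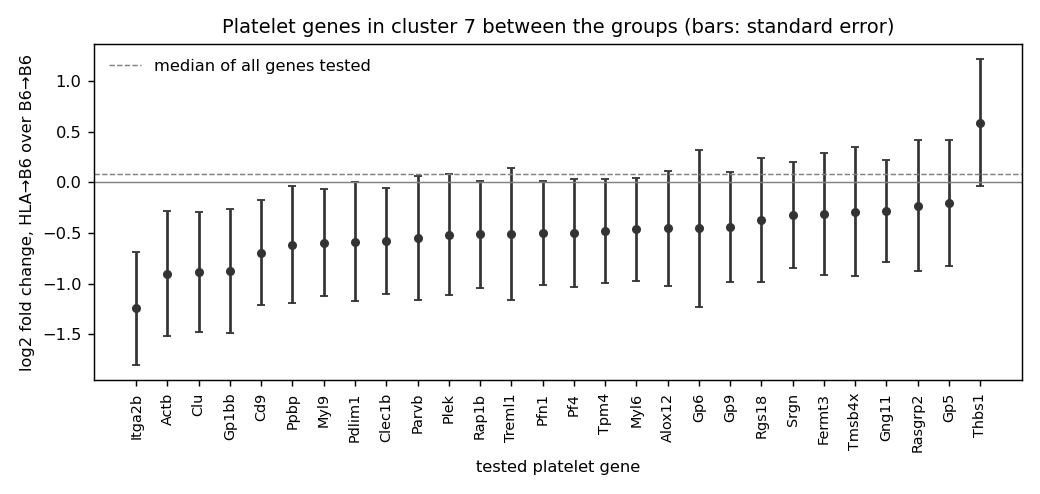
Log2 fold change of the 28 tested platelet genes in cluster 7, HLA→B6 over B6→B6 (3 mice each, edgeR), with bars of 1 standard error. Points run from -1.25 (Itga2b) to 0.59 (Thbs1), the dashed line is the median of all 215 genes at 0.08, and no gene passed the adjusted threshold.

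The second comparison asked how much platelet RNA lay outside the cluster. The core level in all other cells was 17.4, 30.0, 19.1, 59.2 and 15.7 CPM in B6→B6 replicates 1 to 5 and 25.7, 23.8 and 41.3 CPM in HLA→B6 replicates 1 to 3. B6→B6 replicate 4 was the highest, and the HLA→B6 mice lay within the B6→B6 range. Means were 28.3 ± 18.2 (SD, n = 5) and 30.2 ± 9.64 (SD, n = 3) CPM (exact permutation p = 0.893). Ppbp alone gave 6.96 ± 9.06 and 8.99 ± 5.15 CPM (exact permutation p = 0.768), and Pf4 alone 24.8 ± 17.5 and 15.2 ± 7.40 CPM (exact permutation p = 0.411). Of cells outside the cluster, 3.63% ± 1.66 and 3.68% ± 1.62 had a core UMI (exact permutation p = 1).

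Whether grafts with more platelet-gene cells also had more platelet RNA elsewhere could be asked over the 8 mice. Pearson's r between the cluster 7 share and the core level in other cells was 0.475 (exact permutation p = 0.247) and Spearman's rho 0.524 (exact permutation p = 0.197). With Ppbp in place of the core list, the other relation computed, r was 0.425 (exact permutation p = 0.298, adjusted 0.298 for both). Without B6→B6 replicate 5 and HLA→B6 replicate 3, which were farthest from the median share, r for the core list was 0.232 (exact permutation p = 0.832, n = 6), so no relation was shown.

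The 423 Ppbp UMIs outside the cluster were unevenly placed. Cells labelled lung structural cell held 234 of them (27.1 CPM) and cells labelled leukocyte 38 (34.7 CPM). Mast cells had the highest level, 106 CPM from 15 UMIs in 85 cells. B cells, which are not known to make Ppbp, had a UMI in 0.306% of cells at a median of 1597.5 UMIs, T cells in 0.473% and structural cells in 1.83% at a median of 1133 UMIs. Only 14 cells outside cluster 7 had 10 or more core UMIs, with a highest value of 46, and all 14 had Malat1. They were 9 structural cells of 7 clusters, 2 myeloid cells and 1 each of alveolar macrophage, leukocyte and monocyte. By mouse, 5 were in HLA→B6 replicate 1, 4 in B6→B6 replicate 4, 3 in HLA→B6 replicate 2 and 2 in B6→B6 replicate 2. The 11 cells of broad cluster 12 outside cluster 7 had 4 to 18 core UMIs, and 8 of them were in structural cluster 6, which has T cell genes.

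Not every platelet gene kept the proportions of cluster 7 elsewhere. In cluster 7 there were 1073 Pf4 UMIs to 1570 of Ppbp. In alveolar macrophages there were 622 to 36, a ratio of 17.3, and Clec1b had 263 UMIs there, 28.2 CPM, of its 353 outside the cluster. In structural cells the ratio was 0.829 and in T cells 1.03. Mast cells had 31 UMIs of Itga2b (219 CPM), against 11 in the 2494 alveolar macrophages. NK cells held 37 UMIs of Gp1bb (22.9 CPM) beside 2 of Ppbp and 0 of Gp5 and Gp6. So the core sum outside cluster 7 is made of different genes in different cell types.

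**Figure D5:**
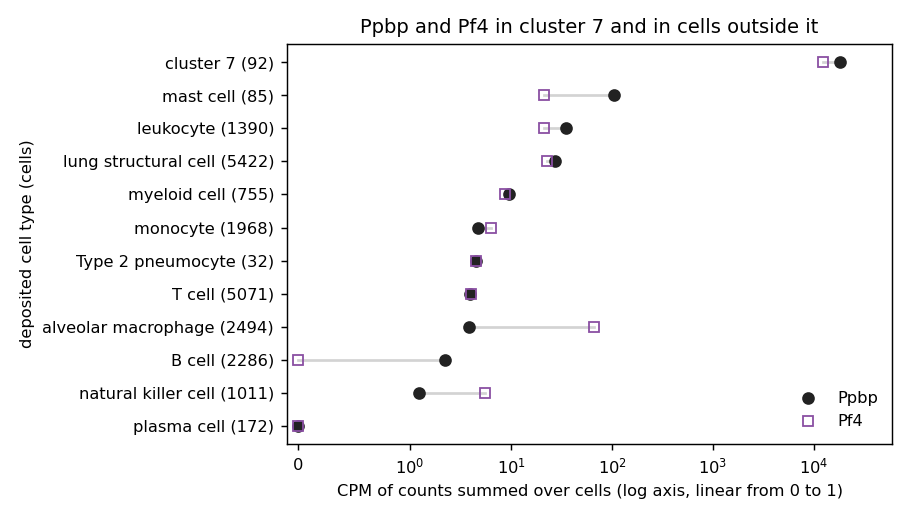
Ppbp (filled circles) and Pf4 (open squares) in CPM of summed UMIs (log axis, linear from 0 to 1) in cluster 7 and in each deposited cell type outside it, with the number of cells in parentheses. Both genes stand above 10000 CPM in cluster 7, and alveolar macrophages show the widest excess of Pf4 (622 UMIs) over Ppbp (36 UMIs).

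By cell type, the core level was compared between the groups in the 8 types with 10 or more cells in enough mice. The smallest p was in myeloid cells, 7.64 CPM in B6→B6 and 68.6 CPM in HLA→B6 (exact permutation p = 0.0714, adjusted 0.5), and for the share of cells with a core UMI the smallest p was 0.25 (exact permutation, adjusted 0.607). None of the 8 types passed on either measure. The myeloid level rests on few cells, since 56 of the 85 core UMIs lay in 2 of 755 cells. The cell with 46 was in HLA→B6 replicate 1, whose level was 68.0 CPM with it and 9.02 CPM without it. HLA→B6 replicate 3 had 134.5 CPM from 8 UMIs, and replicate 2 had 3.32 CPM.

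Among 8 genes whose products meet platelets on other cells, only Itgb2 was counted in cluster 7 (15 UMIs in 11 cells). Outside, Ackr1, Pdpn, Cd40 and Cxcr2 stood between 1.49 CPM (Ackr1) and 28.5 CPM (Cxcr2). Each level is below the 34.7 CPM that 3 UMIs are worth, so a count of 0 does not show a lower level. Itgam (40.0 CPM) and Cxcr3 (45.7 CPM) were little above that limit outside, and Selplg was far above it (393 CPM). Shares of cells here are not thinned, and median depth by cell type ran from 678.5 UMIs (leukocyte) to 7942.5 UMIs (plasma cells). Selplg, which encodes PSGL-1, the ligand of P-selectin, had a UMI in 82.5% of NK cells, 78.8% of mast cells, 66.0% of myeloid cells, 61.4% of T cells and 56.9% of cells labelled leukocyte. Its levels in these types, in the same order, were 1363, 995, 635, 747 and 1258 CPM. Cxcr2, the neutrophil receptor of CXCL7, was counted in 52.7% of the cells labelled leukocyte, in 34.1% of mast cells and in 0.842% or less of every other type. Cxcr3, a receptor reported for CXCL4 among its ligands, was counted in 18.9% of T cells and 31.4% of the deeper plasma cells. By level the order was the reverse, 159 CPM in T cells and 79.7 CPM in plasma cells. Pdpn, the podoplanin gene, reached 7.14% of alveolar macrophages.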

How the data were processed

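Lung grafts of 8 mice were measured by droplet 3′ end sequencing. The deposited values are UMI counts per gene and cell, which the authors made with Cell Ranger on mm10 (GRCm38) and clustered with Seurat (versions not given). The authors state that barcodes under 200 UMIs and genes in fewer than 3 cells were left out, and that SoupX removed free RNA. The deposited counts are whole numbers and the shallowest cell holds 2 UMIs, so it could not be told whether they precede that step. Cells took their mouse from the sample column of the deposited table of cells. For HLA→B6 that column gives the numbers of the sample titles (1, 2 and 3), while the cell names give others (2, 3 and 5), so HLA→B6 replicate numbers, and what rests on them, follow the column. In all, 0 value columns were left unused. Members and gene lists were chosen with earlier results of these data known.

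CPM is the summed count of the cells named over all their UMIs. Means per mouse were compared by exact permutation tests, two-sided, with the mouse as replicate. Counts of cluster 7 summed per mouse (at least 5 cells, which leaves 3 mice a group) were normalized by TMM, filtered by filterByExpr (minimum count 10) and tested with edgeR 4.0.16, with DESeq2 1.42.0 as an alternative, at an adjusted p under 0.05. Both ran in R 4.3.3, and scanpy 1.11.5 and scipy 1.17.1 in Python 3.11.15 gave Scrublet (expected rate 0.06) and the exact tests. Shares were also computed with cells thinned to 500 UMIs. Libraries were called linked where they shared barcodes at 5 times the median rate or more. Named genes are 20 fixed lists, and the 15 genes with the largest fold among those with 20 UMIs in cluster 7 and a UMI in 4 mice. Up to 3 genes per direction past the threshold were to be named, and there were none. Some genes of these lists are not reported here. Rsu1, Rps19, Cd74 and Ly6a were named after their values were seen, as was the Malat1 line at 20 UMIs. Intervals (95%) and floors (3 counts) cover counting error only. Median depth of 1356 to 1948 UMIs per cell limits precision, and p-values measure the spread between these mice. The edgeR step was tested on simulated data. Sequences are from the RefSeq promoter table (GRCm38.p6) and gene positions from GENCODE. Alternatives were each mouse left out, other gene sets, filters, cell sets and a replicate block.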

Additional observations from a re-analysis of the deposited data

Results flagged for a closer look

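The share of cells outside cluster 7 with a core platelet UMI was 6.53% in B6→B6 replicate 4, far above the other 4 B6→B6 mice, which lay between 2.33% and 3.34%. The share with a Ppbp UMI was 2.31% in the same mouse, against 0% to 0.663% in the others. Both values were the highest of 5 by a wider gap than Dixon's 95% value allows. Of 23 groups of values examined 2 were set apart in this way, and chance alone sets about 1 in 20 apart. That mouse also had the most cluster 7 cells, 26, and 266 cells outside the cluster with a core UMI, of which 35 had 3 or more. Its median depth, 1419 UMIs per cell, was within the range of the others, and its library was not linked to another by shared barcodes. What set it apart was not tested.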

How the results depend on the processing

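Of 192 values recomputed under an alternative, 166 kept their direction and their side of the threshold, 21 changed sign and 5 counts moved. None of the exact tests passed 0.05 in any alternative. Those within linked sets and with a replicate block could not, since their smallest possible p is 0.0833 and 0.25. The changes of sign for Gp9 and Tmsb4x are of edgeR log2 differences, which had no exact test and were not called. The cause of each change of sign was not tested. The difference in cluster 7 share (HLA→B6 minus B6→B6, percentage points) ran from -0.328 to 0.0621 when 1 mouse was left out, with a positive sign without B6→B6 replicate 3 (0.0115), HLA→B6 replicate 1 (0.0621) or HLA→B6 replicate 2 (0.0475). The difference in core level of other cells was -9.57 CPM for Pf4 alone, -2.13 for the mean of CPM per cell, -0.355 without shared barcodes and -1.18 within sets of linked libraries, and ran from -3.56 to 9.71 with 1 mouse left out. Leaving out B6→B6 replicate 1, 3 or 5 gave -0.743, -0.325 or -1.18, and leaving out HLA→B6 replicate 3 gave -3.56. The difference in cells with a core UMI was -0.0409 points thinned to 500 UMIs and -0.279 without shared barcodes, and ran from -0.705 to 0.909 with 1 mouse left out. Negative values came from leaving out B6→B6 replicate 1, 2, 3 or 5 (-0.278, -0.0950, -0.135, -0.0252) or HLA→B6 replicate 2 or 3 (-0.0604, -0.705). Within cluster 7, the number of genes called lower in HLA→B6 than in B6→B6 was 1 with no filter on low counts and 1 with at least 10 cells per mouse. It was 0 to 1 with 1 mouse left out (1 without B6→B6 replicate 3, HLA→B6 replicate 2 or HLA→B6 replicate 3). In each case the gene was Scgb1a1, which did not pass the main filter and whose 276 UMIs in 1 cell of B6→B6 replicate 2 make 32873 CPM in that mouse. The log2 difference of Gp9 ran from -1.10 to 0.069 with 1 mouse left out (0.069 without B6→B6 replicate 2), and that of Tmsb4x was 0.053 without the cells of broad cluster 0. That of Ppbp ran from -1.52 (without HLA→B6 replicate 1) to -0.32 (without HLA→B6 replicate 3) and that of Pf4 from -0.87 to -0.34, none called. The share of cluster 7 cells without Malat1 ran from 63.0% to 74.2% with 1 mouse left out.

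Whether replicate numbers paired the mice could not be settled, since deviations of same-numbered mice correlated at 0.36, 0.43 and -0.17. With a replicate block the share difference was -0.212 points (exact p = 0.5, smallest possible 0.25), the core level 8.09 CPM and the cells with a core UMI 0.917 points (exact p = 0.5 each). In edgeR the block kept only replicates 2 and 3 of each group. B6→B6 replicate 4 and HLA→B6 replicate 1 had no same-numbered partner with enough cells and were left out. In that fit Ppbp had a log2 difference of -1.70, and edgeR called 0 genes higher and 0 lower, with 31 higher and 23 lower at an unadjusted p under 0.05. Without a block, leaving out HLA→B6 replicate 1 gave -1.52 for Ppbp, so the effect of the block cannot be told apart from that of the mice left out. With 7 to 26 cells a mouse, depth limits what the cluster can show between groups.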
